A study of Mus musculus with 6 samples.

Results

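The nuclear genes of the mitochondrial respiratory chain were examined in splenic CD8+ T cells of mice, complex by complex. A gene was taken as a member when it was protein-coding, its symbol began with 1 of 12 prefixes (Ndufa, Ndufb, Ndufc, Ndufs, Ndufv, Uqcr, Cox4, Cox5, Cox6, Cox7, Cox8 or Atp5) and its mean FPKM over the 6 samples was at least 1. FPKM is the number of fragments scaled by transcript length and by library size. Of 28773 gene IDs, 97 had a symbol with such a prefix, 86 of these were protein-coding and 81 passed the limit on expression. The 81 members were 36 subunits of complex I, 8 of complex III, 13 of complex IV and 16 of complex V, with 7 assembly factors of complex I (Ndufaf genes) and Atp5s, a coupling factor of complex V. Ndufa4 was counted in complex IV, where its protein resides, and so was Cox7a2l, which joins complexes into supercomplexes. The 5 protein-coding genes under the limit were Cox4i2, Cox6b2, Cox7a1, Cox8b and Ndufaf2, with mean FPKM between 0.0067 and 0.763, and the highest of them (Cox6b2, 0.763) lay below the lowest members (Ndufc1, 1.61, and Atp5g1, 1.62). Complex I gained no Ndufb1, since that locus is listed as Ndufb1-ps and not as protein-coding (mean FPKM 2.69).

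Both groups had their tumors treated with microwave ablation (MWA), and the cells were taken on day 35. The 3 MWA+PBS samples (replicates 1 to 3) came from mice given the PBS vehicle ("with PBS"), and the 3 MWA+2DG samples (replicates 4 to 6) from mice given 2-deoxy-D-glucose (2DG), a glucose analogue that hinders glycolysis ("with 2DG"). The study's methods describe intraperitoneal injections every other day that ended before day 35, and CD8+ T cells drawn from crushed spleens with an isolation kit. The labels give no strain, tumor line, age or number of animals per sample, so the p-values below measure the spread between these samples, which may be technical. Cd8a, which encodes a chain of the CD8 co-receptor, had an FPKM of 226 to 239 with PBS and 359 to 377 with 2DG. Markers of other cells were present as well. The summed FPKM of 14 macrophage genes was 938 to 1012 with PBS and 135 to 144 with 2DG, and none of the 14 was listed at 0 in every sample. Erythroid genes summed to 317 to 372 and 87.9 to 106, and B cell genes to 9.76 to 10.9 and 60.9 to 66.2. The 14 neutrophil genes summed to 338 to 366 and 1640 to 1821 but went both ways: 11 were called higher, among them S100a9 (mean FPKM 23.2 with PBS and 596 with 2DG), and 2 lower, Mpo (226 and 33.4) and Elane (47.2 and 10.7), granule enzymes of immature neutrophils that made up most of the sum with PBS. The read depth is unknown because the values hold no counts. In these bulk samples, fewer cells of a type and less RNA per cell cannot be told apart.

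The respiratory chain sits in the inner mitochondrial membrane. Complex I oxidises NADH and passes electrons to ubiquinone, complex III passes them on to cytochrome c, complex IV hands them to oxygen, and complex V (ATP synthase) uses the proton gradient that the others build to make ATP. Complexes I, III, IV and V are mosaics of many small subunits encoded in the nucleus and a few hydrophobic core subunits encoded in mitochondrial DNA, and dedicated assembly factors put them together. T cells rely on this machinery at rest and as memory cells, and draw more on glycolysis when activated.

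Across all 81 members the groups were close to each other. The median log2 fold change (MWA+2DG minus MWA+PBS, on log2(FPKM + 1)) was 0.03 for the members and 0.05 for all 12444 genes tested. limma with Benjamini-Hochberg adjustment over all tested genes called 11 members at an adjusted p under 0.05, which is 13.6%, where it called 39.4% of all genes. Of the 11, 5 were higher in MWA+2DG (Ndufb4, Ndufaf4, Atp5j, Ndufv3 and Ndufa7) and 6 were lower (Cox6a2, Cox8a, Cox7a2, Atp5b, Atp5o and Atp5a1). Over all genes 22.3% were called higher and 17.1% lower. The count rested on single samples: 3 members (3.7%) were called without MWA+PBS replicate 1 or MWA+2DG replicate 6 and 5 (6.17%) without MWA+2DG replicate 4 or 5, where 29.8 to 33.2% of all genes were called. With the rule of the study's methods (P under 0.05 and a log2 fold change beyond 0.25) 12 members were called, 7 higher and 5 lower, against 38.2% of all genes. The groups did not overlap in FPKM for 19 members, 11 higher and 8 lower, where they did not overlap for 52.1% of all genes.

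Most log2 fold changes of the members were small. The log2 fold change lay within 0.25 of 0 for 82.7% of members and 57.6% of all tested genes, and, on the log2(FPKM + 1) scale, beyond 0.5 for 1 member, Cox6a2, and for 18.2% of all genes. The median size of the log2 fold change, sign ignored, was 0.121 in the members and 0.206 in all genes. Among the 70 members that were not called, the 95% interval of the log2 fold change lay wholly between -0.5 and 0.5 for 60. For all 8 subunits of complex III it did so.

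**Figure D1:**
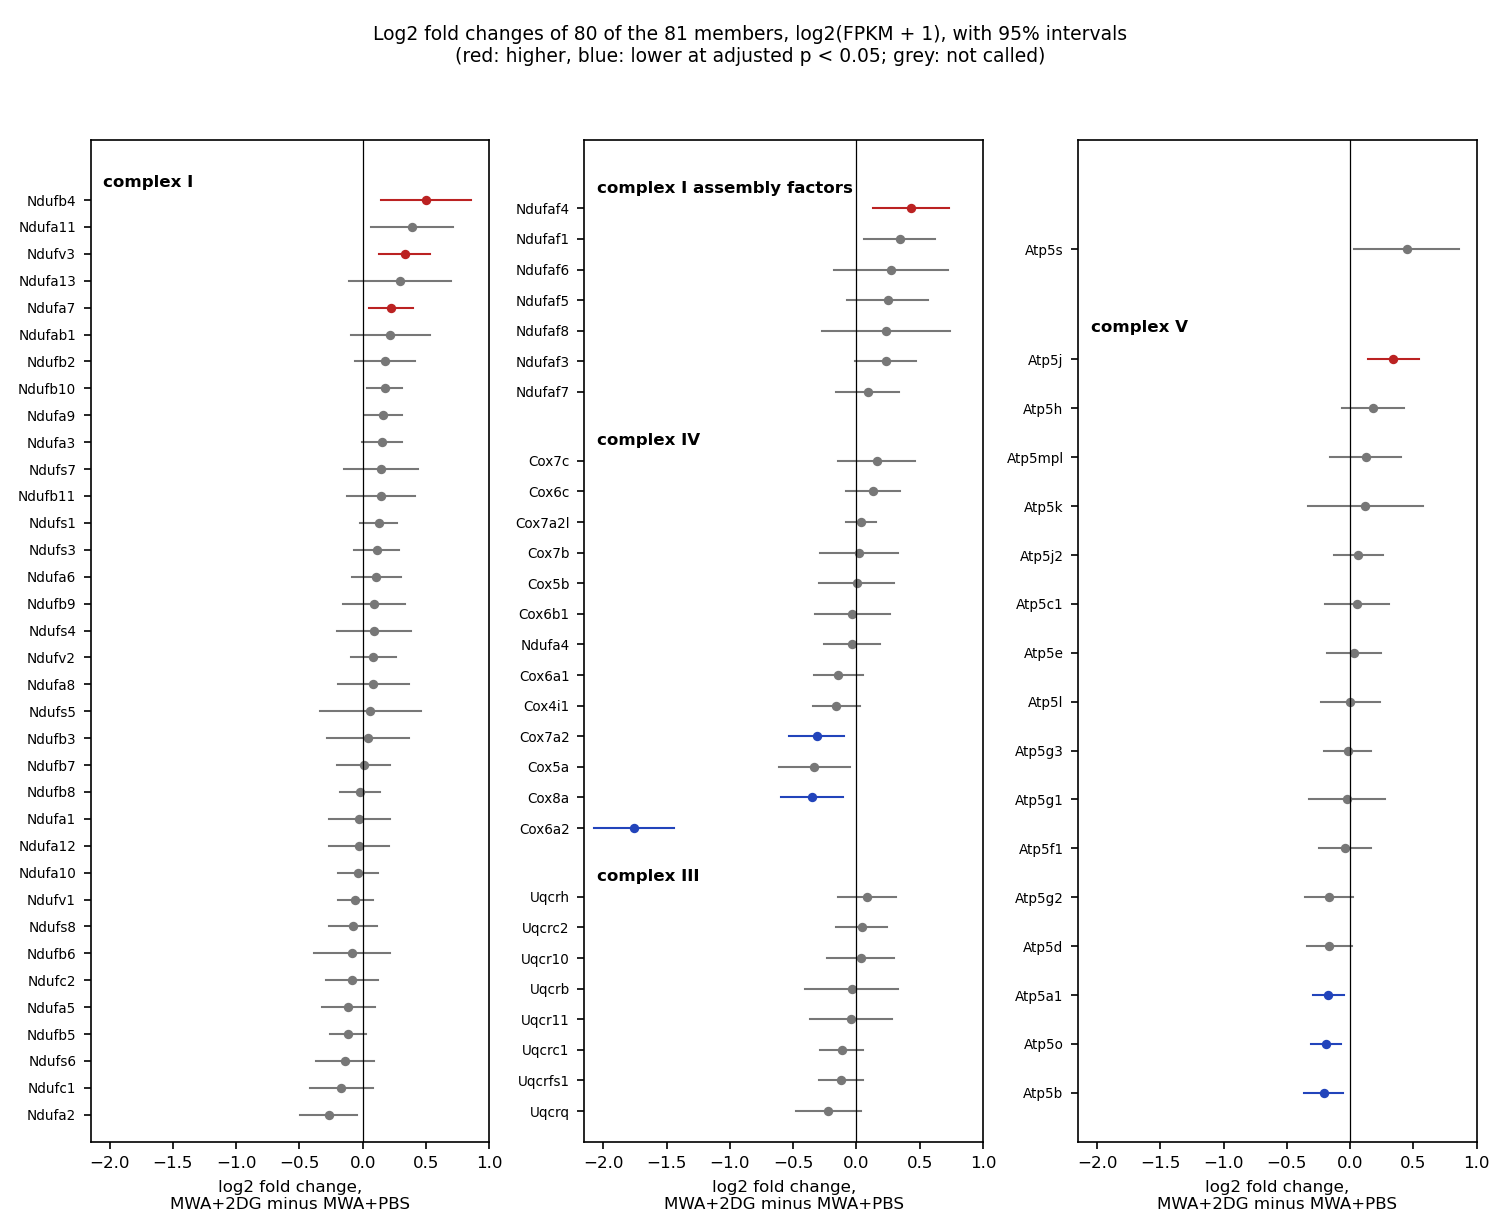
Log2 fold changes (MWA+2DG minus MWA+PBS, on log2(FPKM + 1)) of 80 of the 81 members with 95% intervals from limma, in 3 panels by complex. Red points are the 5 members called higher at an adjusted p under 0.05, blue points the 6 called lower, and grey points the 69 others drawn, which were not called. Complex I calls lie to the right of 0, complex IV calls to the left, and Cox6a2 stands far from the rest at -1.76.

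These values depend on the scale. FPKM is a share of each library, and genes of T lineage cells took a larger share in MWA+2DG: 16 of 18 were called higher, with a median log2 fold change of 0.43. When each library was scaled to these 18 genes, the median log2 fold change of all genes went from 0.05 to -0.39 and that of the members to -0.40, with 65 members called lower, 0 called higher and 73.7% of all genes called. Ndufv3 (-0.11), Ndufa7 (-0.22), Ndufaf4 (-0.0078) and Atp5j (-0.096) were then below 0. On that scale too the members' median was close to that of all genes.

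1 library stood apart for these genes. MWA+PBS replicate 3 had the lowest FPKM of its group in 64 of 81 members (79.0%), against 43.2% of all tested genes, and its median deviation from the group mean was -0.13 on the log2 scale in the members and -0.03 in all genes. In complex V it was lowest for 15 of 16 subunits. Many of these genes are short: 37 members (45.7%) had a longest transcript under 1000 bases, against 16.6% of all tested genes, and in those 37 replicate 3 was lowest in 31, with a median deviation of -0.18. Among all short genes tested it was lowest in 46.3%. What part transcript length had in this was not tested. Without this library, 10 members were called (12.3%, against 32.3% of all genes), 1 higher (Atp5j) and 9 lower (Cox4i1, Cox5a, Cox6a2, Cox7a2, Cox8a, Atp5a1, Atp5b, Atp5g2 and Atp5o), and the median of the members was -0.05. Complex I then had no call, complex IV had 5 of 13 lower, and complex V had 4 of 16 lower and 1 higher, where 17.2% of all genes were called higher and 15.1% lower.

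**Figure D2:**
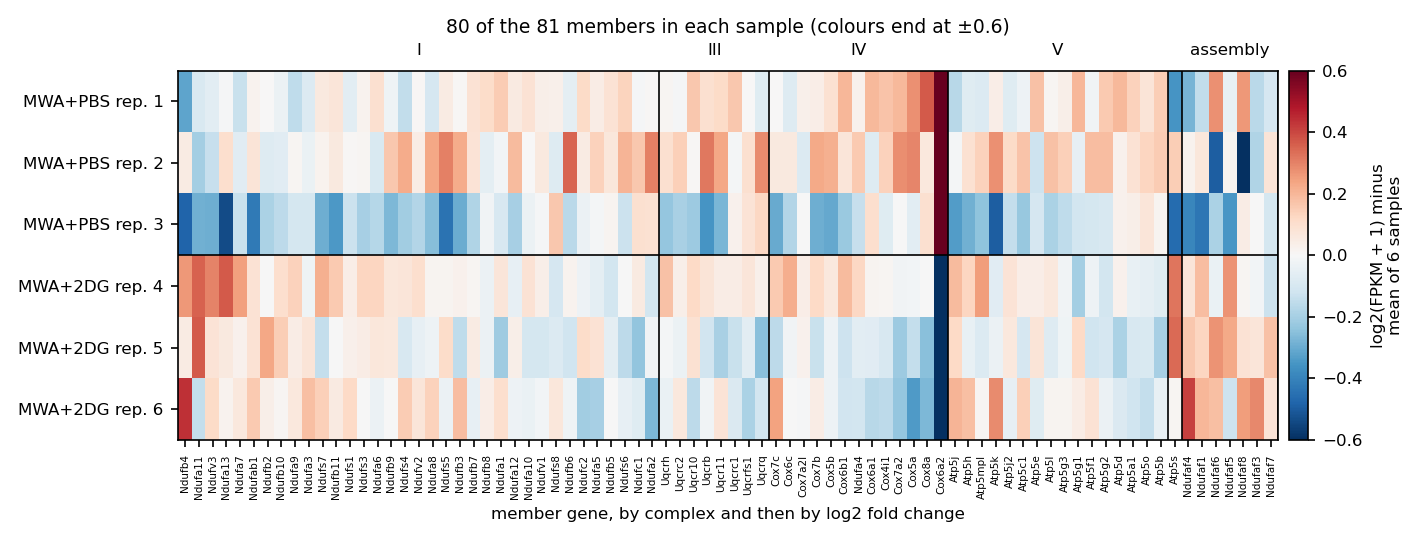
Each column is a member (80 of 81 drawn) and each row a sample, and the colour gives log2(FPKM + 1) minus the gene's mean over the 6 samples, with the scale ending at 0.6 in both directions. The row of MWA+PBS replicate 3 is blue across most of complexes I, III, IV and V (lowest of its group in 64 of 81 members), and Cox6a2 is the column with strong colours of opposite sign in the 2 groups.

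Complex I is an L-shaped enzyme with an N module that oxidises NADH, a Q module that reduces ubiquinone and an arm in the membrane that pumps protons. Its 36 subunits summed to 411, 428 and 361 FPKM with PBS and to 433, 409 and 416 with 2DG, so the groups overlapped. The median log2 fold change was 0.08, and -0.020 without MWA+PBS replicate 3. Of the 36 subunits 3 were called (8.33%, against 39.4% of all genes), all of them higher. By module, 2 of 10 N module subunits, 0 of 5 Q module subunits and 1 of 20 membrane arm subunits were called.

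Ndufb4, an accessory subunit of the membrane arm, had the largest log2 fold change among the 5 members called higher. Its FPKM was 3.04, 4.20 and 2.60 with PBS and 5.02, 4.21 and 5.81 with 2DG. The groups were separated by 0.01 FPKM, between MWA+PBS replicate 2 and MWA+2DG replicate 5. The log2 fold change was 0.50 ± 0.15 (SE, n = 3 per group; adjusted p = 0.0357 by limma). Ndufb4 reads are uncertain, since the pseudogene Ndufb4c matched its transcript at 100% over 390 bases and was listed at a mean FPKM of 3.54, with no call of its own (log2 fold change 0.18, limma adjusted p = 0.366).

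Ndufv3, a small accessory subunit of the N module, had 7.72, 7.29 and 6.44 FPKM with PBS and 10.2, 8.67 and 8.88 with 2DG. All 3 treated samples were above all 3 control samples, with a log2 change of 0.33 ± 0.09 (SE; adjusted p = 0.0196 by limma). Ndufa7, an accessory subunit of the same module, had 6.57, 6.94 and 6.59 FPKM with PBS and 8.85, 7.47 and 7.68 with 2DG, a log2 change of 0.22 ± 0.07 (SE; adjusted p = 0.0477 by limma). Its call was lost in 10 of 16 alternative settings, among them quantile normalization and median ratio scaling. In 1 of them, T lineage scaling, it was called lower. Without MWA+PBS replicate 3 none of these 3 calls held. Each was also lost without MWA+2DG replicate 4, those of Ndufb4 and Ndufa7 without MWA+PBS replicate 1 or MWA+2DG replicate 6, and that of Ndufa7 without MWA+PBS replicate 2. With 1 sample left out, the log2 fold changes were 0.38 to 0.65 (Ndufb4), 0.27 to 0.38 (Ndufv3) and 0.16 to 0.26 (Ndufa7).

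The fixed core subunits of complex I described here gave no call. Ndufv1, which carries the flavin where NADH is oxidised, was at 14.4 ± 0.36 FPKM with PBS and 13.8 ± 0.72 with 2DG (mean ± SD, n = 3 each), with a 95% interval of the log2 fold change from -0.19 to 0.08. Ndufs1, which holds iron-sulfur clusters of the N module, was at 8.36 ± 0.44 and 9.21 ± 0.35, with an interval from -0.02 to 0.27. For both, changes beyond 0.27 in either direction lie outside the interval. Ndufa11, a membrane arm subunit, reached 0.39 but did not pass the adjusted test (limma adjusted p = 0.0611), and one of its treated samples (7.85) lay among the controls (7.00 to 8.17). Among complex I subunits with negative values, Ndufa2 of the N module had the largest (-0.27, limma adjusted p = 0.0627).

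Complex III showed no call among its 8 members, against 39.4% of all genes. At an unadjusted p under 0.05 it had none either, where 6051 of 12444 genes passed. The summed FPKM was 168, 177 and 148 with PBS and 172, 155 and 157 with 2DG. Uqcrfs1, the Rieske iron-sulfur protein that takes electrons from ubiquinol, was at 28.2 ± 1.01 and 25.9 ± 2.45 FPKM (mean ± SD, n = 3 each). Uqcrc1 and Uqcrc2, the large core proteins on the matrix side, were at 21.9 ± 1.49 and 41.5 ± 4.95 with PBS and at 20.1 ± 1.34 and 42.6 ± 1.56 with 2DG. Their log2 fold changes were -0.12 and 0.04. Log2 fold changes in the complex ran from -0.22 (Uqcrq) to 0.08 (Uqcrh), and all 8 lay within 0.25 of 0.

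**Figure D3:**
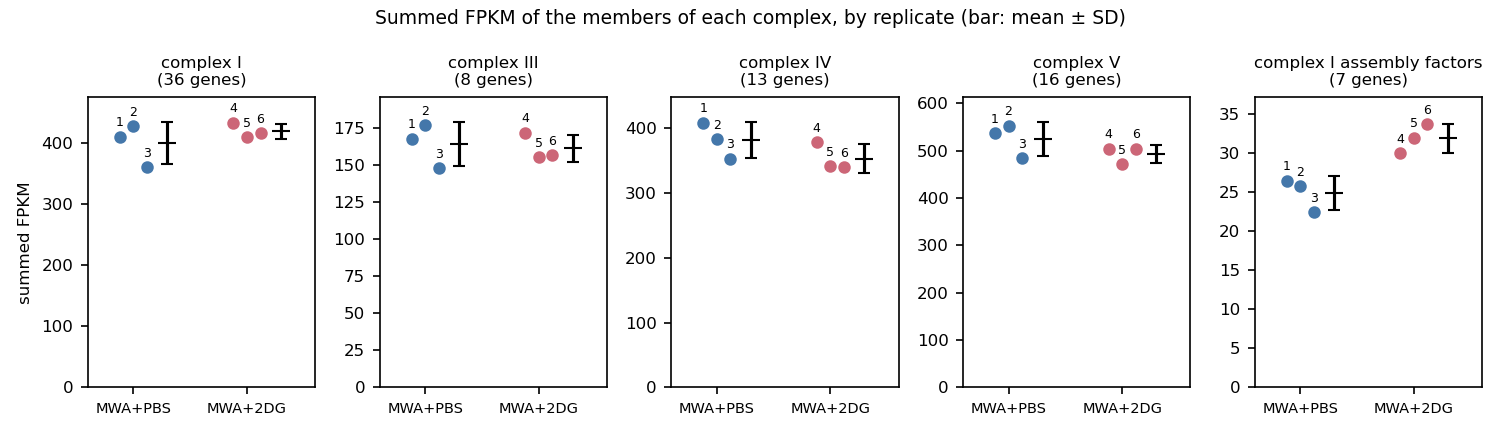
Summed FPKM of the members of complexes I, III, IV and V and of the complex I assembly factors in each sample (y axis from 0), with the replicate number over each point and the mean ± SD as a bar. The groups overlap in each of the 4 complexes, MWA+PBS replicate 3 is the lowest control in every panel, and the assembly factors do not overlap (22.5 to 26.5 against 30.0 to 33.7).

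Complex IV, cytochrome c oxidase, had 3 of 13 members called, all of them lower in MWA+2DG (23.1% called, against 39.4% of all genes, of which 17.1% lower). Its sum was 408, 383 and 353 FPKM with PBS and 378, 341 and 339 with 2DG, and the median log2 fold change was -0.03. The size of that median depended on single genes and samples, with -0.14 when Ndufa4 was put in complex I and Cox7a2l left out, -0.10 with arrayWeights, -0.15 without MWA+PBS replicate 3 and 0.0022 without MWA+2DG replicate 6. Several of its subunits exist as a ubiquitous form and as a form best known from heart and skeletal muscle, and the largest difference was in one of the latter.

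Cox6a2, the muscle form of subunit VIa, was at 5.09, 3.84 and 4.08 FPKM with PBS and at 0.52, 0.39 and 0.83 with 2DG. Every treated sample lay far below every control sample. The mean in MWA+2DG was 0.134 of that in MWA+PBS, and the log2 fold change was -1.76 ± 0.14 (SE, n = 3 per group; limma adjusted p = 6.98e-05). Cox6a2 was the only member with a mean FPKM under 1 in one of the groups, and so passed the limit on expression only through MWA+PBS. With every gene tested and no limit, the call held (limma adjusted p = 0.00163). This was the only member call that held in every alternative in which it could be fitted, 15 of 15. Cox6a1, the ubiquitous form, was at 42.4, 34.9 and 39.7 with PBS and 37.4, 35.2 and 32.8 with 2DG, with overlapping groups and no call (log2 fold change -0.14, limma adjusted p = 0.204). Cox6a2 thus went from 9.32 to 10.7% of the FPKM of both forms with PBS to 1.10 to 2.47% with 2DG. Macrophage markers (14 of 14 called lower) and erythroid markers (9 of 10) were lower in MWA+2DG as well, with the sums given above, and their part in the change of Cox6a2 was not tested.

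The other tissue-restricted forms were at low FPKM. Cox4i2, Cox7a1 and Cox8b had a mean FPKM of 0.08, 0.405 and 0.0067 and were not tested, and Cox6b2, the testis form of subunit VIb, had 0.91, 1.07 and 1.02 FPKM with PBS and 0.71, 0.50 and 0.37 with 2DG. The ubiquitous Cox6b1 was at 34.0 ± 5.13 and 33.1 ± 4.34.

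The other calls in complex IV were in ubiquitous subunits and were smaller. Cox8a, a small subunit in the membrane, had 64.9, 52.3 and 53.6 FPKM with PBS and 50.0, 42.0 and 41.3 with 2DG, with a log2 change of -0.35 ± 0.10 (SE; adjusted p = 0.0326 by limma). Cox7a2, the form of subunit VIIa found outside muscle, had 16.2, 17.2 and 13.95 with PBS and 13.77, 11.9 and 11.75 with 2DG, with a log2 change of -0.31 ± 0.09 (SE; adjusted p = 0.0307 by limma). In both genes the treated samples were all lower, by a narrow gap for Cox7a2 (13.95 against 13.77). Both calls were lost without MWA+PBS replicate 1, MWA+2DG replicate 5 or MWA+2DG replicate 6, and that of Cox7a2 also without MWA+PBS replicate 2, with log2 fold changes between -0.44 and -0.25 (Cox8a) and between -0.39 and -0.25 (Cox7a2) when 1 sample was left out. Cox5a, next to them in size at -0.34, had overlapping groups and did not pass (limma adjusted p = 0.0606). Cox4i1, the regulatory subunit IV, was at 54.4 ± 4.95 and 48.5 ± 2.97 FPKM (log2 fold change -0.16, limma adjusted p = 0.155). Without MWA+PBS replicate 3 both passed, at -0.45 (Cox5a, limma adjusted p = 0.0155) and -0.23 (Cox4i1, limma adjusted p = 0.0404). Cox7a2l, the third highest of all members, was at 94.0 ± 3.68 and 96.5 ± 1.59, with a 95% interval of the log2 fold change from -0.08 to 0.16. Ndufa4 was at 15.5 ± 1.68 and 15.1 ± 1.42.

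**Figure D4:**
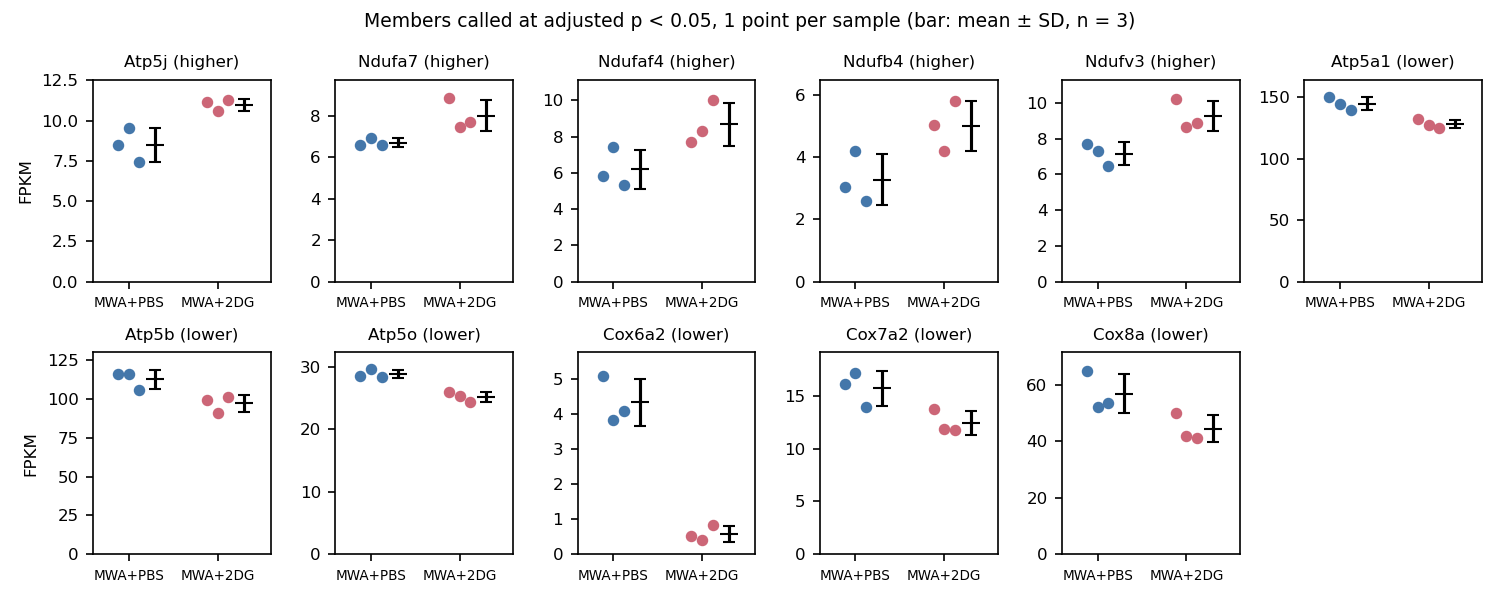
FPKM of the 11 members called at an adjusted p under 0.05, 1 point per sample, with the mean ± SD (n = 3) beside each group and each y axis starting at 0. Cox6a2 falls from 3.84 to 5.09 with PBS to 0.39 to 0.83 with 2DG, whereas the groups of the other 10 genes lie close together without overlapping.

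Complex V contains the F1 head, which makes ATP, and the membrane-bound Fo part with its rotating c ring, joined by stalks. It held the most abundant members, Atp5a1 (mean FPKM 137) and Atp5b (105). The sum over 16 subunits was 538, 553 and 484 FPKM with PBS and 505, 472 and 505 with 2DG. Of these, 3 were called lower and 1 higher (25% called, against 39.4% of all genes).

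The summed FPKM of the F1 head was lower in all 3 treated samples, with 354, 352 and 322 FPKM with PBS and 318, 297 and 315 with 2DG over 5 subunits, which is 343 ± 18.2 and 310 ± 11.5 (SD). The gap between the nearest samples was small, and the lowest control was again replicate 3. Atp5a1 and Atp5b, the highest of the 5 subunits, weigh most in this sum. Of the 5 subunits 2 had positive log2 fold changes, Atp5c1 (0.06) and Atp5e (0.03). Over all genes 52.1% did not overlap in FPKM. Atp5a1, the alpha subunit, was at 150, 145 and 140 with PBS and 132, 127 and 125 with 2DG, a log2 change of -0.17 ± 0.05 (SE; adjusted p = 0.0344 by limma). Atp5b, the catalytic beta subunit, was at 116, 117 and 106 with PBS and at 99.6, 91.1 and 102 with 2DG, a log2 change of -0.21 ± 0.07 (SE; adjusted p = 0.0373 by limma). Both transcripts were thus lower in all 3 treated samples, by less than the 0.25 that the study's rule asks for. The alpha and beta proteins occur in equal numbers in the head. Neither call held when MWA+PBS replicate 1 or a single MWA+2DG replicate was left out, and that of Atp5b was also lost without MWA+PBS replicate 2, at -0.20 to -0.15 (Atp5a1) and -0.26 to -0.16 (Atp5b). The central stalk subunit Atp5c1 (gamma) overlapped between groups, at 51.3 ± 7.29 and 53.2 ± 4.61, and Atp5d (delta) was at 24.2 ± 1.72 and 21.5 ± 1.68 with no call (limma adjusted p = 0.126).

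In the stalks and the membrane part, the calls went in opposite directions. Atp5o, the oligomycin sensitivity conferring protein that ties the head to the outer stalk, had 28.5, 29.6 and 28.4 FPKM with PBS and 25.9, 25.2 and 24.3 with 2DG, a log2 change of -0.19 ± 0.05 (SE; adjusted p = 0.0212 by limma). Atp5j, coupling factor 6 of the same stalk, had 8.50, 9.56 and 7.43 with PBS and 11.1, 10.6 and 11.3 with 2DG, a log2 change of 0.34 ± 0.09 (SE; adjusted p = 0.0177 by limma). Both separated the groups fully. Without MWA+PBS replicate 3, Atp5o stayed at -0.20 and Atp5j at 0.26, and both were still called. Both calls were lost without MWA+PBS replicate 1 or MWA+2DG replicate 6, that of Atp5o without MWA+2DG replicate 5 and that of Atp5j without MWA+2DG replicate 4, at -0.21 to -0.17 (Atp5o) and 0.26 to 0.42 (Atp5j).

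The c ring is encoded by 3 genes, Atp5g1, Atp5g2 and Atp5g3, which give the same mature protein. None was called. Within their summed FPKM, Atp5g2 held 51.6 to 52.4% with PBS and 49.0 to 49.6% with 2DG, and Atp5g3 held 43.8 to 45.5% and 46.8 to 47.9%. The ranges of these shares did not overlap for either gene. Both shares together make up nearly the whole, so a fall in 1 goes with a rise in the other. The FPKM of each gene overlapped between groups. Atp5g1 held only 2.84 to 3.85% and 2.79 to 3.98%. That low value is uncertain, because the pseudogene Gm10039 matched the Atp5g1 transcript at 99.8% over 411 bases and was listed at 34.1, 34.2 and 42.6 FPKM with PBS and at 30.0, 28.5 and 26.3 with 2DG (log2 fold change -0.37, limma adjusted p = 0.0192), far above Atp5g1 itself (1.41 to 1.99 and 1.26 to 1.83). Shares of the c ring computed without it are therefore shares of the 3 named genes alone. A similar case was Ndufa12, at a mean FPKM of 5.92, beside the pseudogene Gm15920 at 21.4 (99.5% over 221 bases). Of the 81 members, 17 had such a near-identical copy (at least 95% over 200 bases), and among the 11 called members Ndufb4 was the only one.

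Atp5s was at 1.08, 1.95 and 0.93 with PBS and 2.32, 2.37 and 1.68 with 2DG, with overlap and no adjusted call (log2 fold change 0.45, limma adjusted p = 0.0822). A pair of complex V genes whose symbols lack the prefixes were looked up after the other values were seen. Usmg5, a small membrane subunit, was at 2.24 ± 0.23 and 2.47 ± 0.11 with no call, and Atpif1, the inhibitor that blocks ATP hydrolysis by the enzyme, was at 9.73, 9.34 and 7.56 with PBS and 6.30, 5.18 and 7.07 with 2DG, a log2 change of -0.46 ± 0.12 (SE; adjusted p = 0.0207 by limma).

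The assembly factors had mostly positive values. The 7 Ndufaf members, which build complex I without being part of it, summed to 26.5, 25.8 and 22.5 FPKM with PBS. With 2DG they summed to 30.0, 32.0 and 33.7. All 7 had positive log2 fold changes, as did 7052 of all 12444 genes, and the median of the 7 was 0.25. Only Ndufaf4 passed the test (14.3% of the 7, against 39.4% of all genes). It was at 5.84, 7.42 and 5.33 with PBS and 7.72, 8.29 and 10.02 with 2DG, a log2 change of 0.43 ± 0.13 (SE; adjusted p = 0.0316 by limma). Ndufaf1, an early factor in the membrane arm, also separated the groups, at 4.75 to 7.15 and 7.51 to 7.93, and did not pass (0.34, limma adjusted p = 0.0558). After T lineage scaling the median of the 7 was -0.19. Without MWA+PBS replicate 3 it was 0.25 and none of the 7 was called. The Ndufaf4 call was also lost without MWA+PBS replicate 1, MWA+2DG replicate 5 or MWA+2DG replicate 6, at 0.33 to 0.55.

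Together with assembly factors of all 4 complexes outside the prefixes, 46 assembly factors were tested. Of these, 15 were called higher (32.6%, against 22.3% of all genes) and 0 lower (against 17.1%) by limma. The share called in either direction, 32.6%, lay below the 39.4% of all genes. At an unadjusted p under 0.05 the counts were 18 higher and 0 lower, where 6051 of 12444 genes passed in either direction. The median log2 fold change was 0.21, against 0.05 for all genes. Positive values numbered 36 of the 46, and 7052 of the 12444. For complex I the called genes outside the prefixes were Tmem186 (log2 fold change 0.61), Dmac2 (0.50), Foxred1 (0.46), Tmem126b (0.30) and Ecsit (0.29), 5 of 9 tested. For complex III they were Lyrm7 (0.43), Uqcc3 (0.32), Bcs1l (0.30), which inserts the Rieske protein, and Ttc19 (0.25), 4 of 6. Lyrm7 (mean FPKM 0.747 with PBS and 1.36 with 2DG) passed the limit on expression only through MWA+2DG. For complex IV they were Cox17 (0.61), a copper chaperone, Surf1 (0.45), Cox15 (0.31), which makes heme a, and Cox18 (0.30), 4 of 21, and for complex V Atpaf1 (0.52), which helps the beta subunit into the head, 1 of 4. Cox17, with the largest of these, was at 2.43, 2.45 and 2.29 FPKM with PBS and at 4.15, 4.02 and 4.39 with 2DG. The calls of Tmem186, Dmac2, Foxred1, Cox17 and Atpaf1 were lost in 1 alternative, T lineage scaling, among those in which they could be fitted. Those of the other 9 genes outside the prefixes were lost in 3 to 10, with Ecsit lost in 10, quantile normalization and median ratio scaling among them. The higher share than in all genes did not hold without some of the samples. Without MWA+PBS replicate 3, 7 were called higher (15.2%, against 17.2% of all genes), without MWA+2DG replicate 4 it was 6 (13%, against 16.1%), and without MWA+2DG replicate 6 also 6 (13%, against 16%). After scaling to T lineage genes 0 were called higher and 21 lower (45.7%, against 70% of all genes).

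Around the members, complex II (succinate dehydrogenase) feeds electrons into the chain from the citric acid cycle. It had 0 of 4 genes called at an adjusted p under 0.05 by limma, against 39.4% of all genes. At an unadjusted p under 0.05 it had 1, where 6051 of 12444 genes passed. All 4 had negative log2 fold changes, from -0.04 (Sdha) to -0.27 (Sdhd, limma adjusted p = 0.0554). Cyc1 and Cycs, the cytochromes that carry electrons at and after complex III, were at 16.6 ± 1.98 and 16.3 ± 1.54 FPKM with PBS and at 17.29 ± 1.195 and 15.3 ± 1.17 with 2DG, with no call. The 13 mitochondrially encoded subunits summed to 62517, 67673 and 64422 FPKM with PBS and to 59395, 58793 and 54282 with 2DG, and each sum in MWA+2DG was lower. Of these 13, mt-Co1, the catalytic core of complex IV, was called lower (-0.36, limma adjusted p = 0.0361) and mt-Nd6 of complex I higher (0.36, limma adjusted p = 0.0175). The mt-Nd6 gene lies on the opposite strand to the others, and whether strand entered the quantification is unstated. Both calls were lost under quantile normalization and without MWA+PBS replicate 3, among other settings. As a share of each library's FPKM, the 73 nuclear subunits held 0.448 to 0.495% with PBS and 0.466 to 0.488% with 2DG, and the 13 mitochondrial ones 20.3 to 21.6% and 18.6 to 19.9%. The nuclear share overlapped between groups and the mitochondrial share did not, where 52.1% of all tested genes did not overlap in FPKM. The largest part of the mitochondrial sum was mt-Co1, at a mean of 17862 FPKM with PBS and 13940 with 2DG. Positive log2 fold changes were those of mt-Nd2 (0.04), mt-Nd5 (0.23) and mt-Nd6 (0.36), and the rest were negative.

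Nuclear subunit genes are known targets of the factors NRF1, GABP (an ETS factor) and YY1 and of the PGC-1 coactivators. Of 11 regulators tested, 2 were lower and 2 higher, a share of 36.4% that lay near the 39.4% of all genes called. Nrf1 was at 4.53, 3.96 and 4.30 FPKM with PBS and at 3.38, 3.05 and 3.46 with 2DG (log2 fold change -0.29 ± 0.08, SE; limma adjusted p = 0.0197). Ppargc1b, which encodes PGC-1 beta, was at 7.41, 6.75 and 7.50 and at 4.58, 4.46 and 4.11 (-0.61 ± 0.07, SE; limma adjusted p = 0.000447). Tfam and Tfb2m, which drive transcription of mitochondrial DNA, were higher, by 0.26 (limma adjusted p = 0.0162) and 0.27 (limma adjusted p = 0.0281). The call of Ppargc1b held in every alternative run. Those of Nrf1, Tfam and Tfb2m were lost without MWA+PBS replicate 1 or 3, that of Nrf1 also without MWA+2DG replicate 5, and those of Tfam and Tfb2m without MWA+2DG replicate 4 and after T lineage scaling, and that of Tfb2m without MWA+2DG replicate 6. Ppargc1a was near 0 in every sample (0.01 to 0.06). Any link between the levels of Nrf1 and Ppargc1b and those of the members, whose median was 0.03, was not tested. Which cells of these bulk samples expressed the regulators is not known.

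RefSeq promoter sequences (build GRCm38.p6, 250 bases before to 50 after the start) were matched for 68 of the 81 members and searched on both strands, with overlapping matches of a motif counted once. The NRF1 motif GCGCATGCG was in 14.7% of member promoters and in 1.81% of all 27025 promoters, and in 4.16% of the promoters of tested genes. The YY1 motif AAGATGGCG was in 10.3%, 1.49% and 3.77% of them, the ETS motif CCGGAAG in 22.1%, 9.12% and 20.8%, the CCAAT box in 41.2%, 37.9% and 39.4%, and the TATA box TATAAA in 7.35%, 14.2% and 6.73%. The 10 members with the NRF1 motif had a median log2 fold change of 0.04, with 1 higher and 0 lower call, and the 58 without it had a median of 0.04, with 4 calls in each direction. A motif match is a description of the letters only, and matches of different motifs do not overlap in the printed promoters. To show members with and without the NRF1 motif, 3 promoters are printed with the matches in capitals. Cox6a1, not called while its muscle form was lower, has an NRF1, a CCAAT and an ETS match. Ndufaf4, called higher, has an NRF1 match. Atp5b, called lower, has 5 CCAAT matches and none of the NRF1, ETS, YY1 or TATA motifs.
Cox6a1 (chr5:115348909-115349208, minus strand): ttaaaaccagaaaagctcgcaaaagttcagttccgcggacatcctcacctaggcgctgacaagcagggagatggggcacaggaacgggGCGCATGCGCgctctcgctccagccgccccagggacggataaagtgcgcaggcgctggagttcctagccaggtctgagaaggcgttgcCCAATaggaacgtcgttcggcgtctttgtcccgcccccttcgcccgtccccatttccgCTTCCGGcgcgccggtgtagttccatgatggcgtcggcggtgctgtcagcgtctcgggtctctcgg
Ndufaf4 (chr4:24897833-24898132, plus strand): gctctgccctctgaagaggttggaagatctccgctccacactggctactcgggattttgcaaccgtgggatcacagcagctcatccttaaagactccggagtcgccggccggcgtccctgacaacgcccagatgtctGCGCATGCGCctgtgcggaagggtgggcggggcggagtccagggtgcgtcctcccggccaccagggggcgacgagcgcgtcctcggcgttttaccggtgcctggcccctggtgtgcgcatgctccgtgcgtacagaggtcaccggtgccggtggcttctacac
Atp5b (chr10:128083057-128083356, plus strand): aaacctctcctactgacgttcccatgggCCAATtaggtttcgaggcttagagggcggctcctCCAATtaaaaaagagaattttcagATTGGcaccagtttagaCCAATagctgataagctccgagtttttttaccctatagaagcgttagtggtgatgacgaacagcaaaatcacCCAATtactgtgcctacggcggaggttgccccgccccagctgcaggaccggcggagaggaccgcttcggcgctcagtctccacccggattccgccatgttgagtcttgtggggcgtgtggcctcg

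By level, the members spanned from 1.61 (Ndufc1) to 137 FPKM (Atp5a1). The median member was at 10.8 FPKM, against 6.58 over all tested genes, and complex medians were 9.61 for complex I, 17.3 for complex III, 15.7 for complex IV and 22.4 for complex V. The order of the highest members was Atp5a1, Atp5b, Cox7a2l, Atp5c1 (52.3), Cox4i1 (51.5) and Cox8a (50.7), and the last 3 overlapped with one another within each group. Atp5b lay above Cox7a2l in all 3 samples with PBS (106 to 117 and 89.96 to 97.1), whereas with 2DG the genes overlapped (91.1 to 102 and 94.8 to 97.9). As listed, subunits that occur together in 1 complex differed widely in FPKM, and assembly factors were low, with a median of 3.44 FPKM. For members with a near-identical copy, such as Atp5g1 and Ndufa12, the listed level is uncertain.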

How the data were processed

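Per the labels, poly(A) RNA went into dUTP libraries whose adapters held molecular identifiers. The authors' deposited values are FPKM per gene. Their notes name cutadapt 1.9, HISAT2 2.0.4, UMI-tools, StringTie 1.3.4d and the build mm9, and their methods ballgown and limma. The annotation release, and whether strand entered the quantification, are not stated in the labels, methods or headers. Symbols and biotypes came from GENCODE M21 by Ensembl ID (28689 of 28773 matched).

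From these files, log2(FPKM + 1) of the 12444 genes with a mean FPKM of at least 1 was fitted with limma 3.58.1 in R 4.3.3 (lmFit, eBayes with a trend), two-sided, without covariates, and adjusted by Benjamini-Hochberg. Fold changes on this scale understate those of low genes. The code was tested on simulated data. Copies were sought with BLAST 2.17.0. Read depth is unknown, so no counting interval is given. Genes named were the largest called changes, the 3 highest members, fixed core subunits and isoform families of each complex, except 1 member, which is in the fits, counts and sums but not reported here by name or drawn. The members, lists and tests were chosen with earlier results of these data known. Copies, motifs, Usmg5 and Atpif1 were chosen after values were seen, and so was the count over all assembly factors.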

Additional observations from a re-analysis of the deposited data

How the results depend on the processing

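The Cox6a2 call held in all 15 alternatives in which the gene could be fitted, and each of the other 10 calls was lost in 3 to 10. Members called at an adjusted p under 0.05 were 3 (0 higher, 3 lower) without the filter on low values, 17 (9 higher) with GC and length trends removed, 18 (8 higher, 10 lower) with arrayWeights, and 65 (0 higher, 65 lower) after T lineage scaling. In that order, these were 3.7%, 21%, 22.2% and 80.2% of the members, beside 18%, 44.4%, 50.7% and 73.7% of all genes. Without the filter 28773 genes were tested. Leaving out 1 sample gave 3 to 12 members called, 1 to 7 higher and 1 to 9 lower, beside 29.8 to 41.7% of all genes. By P and fold change, T lineage scaling called 66 members (0 higher, 66 lower). The median log2 fold change of all genes was then -0.39. By the same rule, leaving out assembly factors and Atp5s left 4 higher. Leaving out 1 sample gave 10 to 12, with 5 to 7 higher and 3 to 7 lower. For this rule the share of all genes was computed in the main setting only (38.2%), so the counts in other settings have none beside them.

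Medians after T lineage scaling were -0.40 (all members), -0.35 (complex I), -0.48 (III), -0.47 (IV), -0.45 (V) and -0.19 (complex I assembly factors), and the last was 0.39 at a mean FPKM of at least 5. Leaving out 1 sample gave -0.047 to 0.091 for all members, -0.020 to 0.15 for complex I, -0.12 to 0.053 for III, -0.15 to 0.0022 for IV, -0.095 to 0.044 for V and 0.20 to 0.36 for the complex I assembly factors. Assembly factors called lower were 21 after T lineage scaling, with 0 higher, 1 with GC and length trends removed, 1 with arrayWeights and 0 without any 1 sample, which gave 6 to 17 higher. The cause of these shifts was not tested.

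Log2 fold changes of the members named by the rule above changed sign as follows. Other members cited beside them, such as Ndufa11, were not followed here. T lineage scaling turned that of Ndufaf4 (-0.0078), Ndufaf1 (-0.094), Ndufaf5 (-0.19), Ndufv3 (-0.11), Ndufa7 (-0.22), Ndufb11 (-0.30), Ndufs1 (-0.31), Ndufa8 (-0.36), Uqcrh (-0.36), Uqcrc2 (-0.40), Cox7a2l (-0.40), Atp5j (-0.096), Atp5c1 (-0.38). Median ratio scaling turned that of Uqcrc2 (-0.0079), Cox7a2l (-0.012). Removal of GC and length trends turned that of Uqcrc2 (-0.041), Cox6b1 (0.00087). Quantile normalization turned that of Cox7a2l (-6.72e-05), Atp5g1 (0.014). Leaving out 1 sample turned Atp5c1 (-0.044 to 0.16), Atp5g1 (-0.092 to 0.070), Atp5g3 (-0.10 to 0.048), Cox6b1 (-0.15 to 0.058), Ndufa4 (-0.11 to 0.037), Ndufa8 (-0.025 to 0.22), Uqcrc2 (-0.046 to 0.12), Uqcrh (-0.015 to 0.15). Of these, only Ndufaf4, Ndufv3, Ndufa7 and Atp5j were called members.

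Depth limits could not be given without counts. No paired analysis was possible because the replicate numbers (1 to 3 and 4 to 6) are not shared between the groups.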
